A study of Mus musculus with 12 samples.

Results

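The genes described here are the autophagy machinery and its receptors, measured as mRNA in MIN6 cells, a mouse insulinoma line that serves as a model of the pancreatic beta cell. They were chosen by symbol: every gene named Atg with a number, Map1lc3, Gabarap or Wipi, together with Ulk1, Ulk2, Becn1, Sqstm1, Rb1cc1, Optn, Nbr1, Pik3c3, Pik3r4, Uvrag, Tfeb, Ambra1, Trp53inp2 and Vmp1. The rule found 39 of the 12643 genes in the count tables. The RefSeq annotation lists 41 such symbols. The remaining 2, the pseudogenes Atg4a-ps and Gabarapl2-ps, are not analysed here.

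Autophagy encloses cytoplasm in a double membrane, the autophagosome, and delivers it to the lysosome. The ULK kinase complex starts the process, a class III phosphatidylinositol 3-kinase marks the membrane, ATG9 and ATG2 proteins supply lipid, and a pair of ubiquitin-like conjugation systems attaches proteins of the ATG8 family (LC3 and GABARAP) to it. ATG8 proteins then bind receptors such as p62 and NBR1 that carry cargo. In beta cells autophagy is known for the turnover of mitochondria, endoplasmic reticulum and insulin granules.

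The study compared cells given an siRNA against Pdx1, the homeodomain transcription factor of beta cells, with cells given a control siRNA that the labels call NT. All cells were MIN6 at passage 29, grown in high-glucose DMEM, nucleofected by the AMAXA method and harvested 72 h later. RNA was collected by translating ribosome affinity purification (TRAP), which pulls down tagged ribosomes with the mRNAs they carry. Each siRNA gave IP RNA (pulled down) and total RNA, so there were 4 groups of 3 libraries: NT total, Pdx1 total, NT IP and Pdx1 IP. Which ribosomal protein carries the tag is not given in the sources used here, and a mock IP was not analysed here. MIN6 is a single tumour line. Nothing in the labels tells whether a replicate is a culture of its own. A p-value therefore refers to the scatter among these libraries alone, and that scatter may be technical.

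Libraries held 29430690 to 45806807 counts over the 12643 genes, and the lowest count of an autophagy gene in any library was 95. Pdx1 mRNA, the check of the siRNA, had a log2 fold change of −1.20 (SE 0.10) in total RNA and −1.27 (SE 0.10) in IP RNA, with no overlap of libraries. Levels are given as CPM, which are counts scaled to a library size that was multiplied by its TMM factor. CPM is therefore not a share of the raw counts. For total RNA the TMM factors lay between 1.22 and 1.23 with NT siRNA and between 0.95 and 1.07 with Pdx1 siRNA. For IP RNA they lay between 0.75 and 0.87 with Pdx1 siRNA, and NT siRNA libraries had 0.98, 1.01 and 1.01. All 10 beta-cell markers looked for were measured. Their summed level was 105084 to 116201 CPM in NT total and 94995 to 101318 CPM in Pdx1 total. In IP RNA it was 205537 to 240157 CPM with NT siRNA and 186217 to 230034 CPM with Pdx1 siRNA, which overlapped. Of 8 markers of other islet endocrine cells 4 were measured, and their summed level was 758 to 792 CPM in NT total and 2894 to 3302 CPM in Pdx1 total, and 1500 to 1544 CPM in NT IP and 5266 to 5967 CPM in Pdx1 IP. Of duct markers only Krt7 was measured (1 of 4), at 64.1 to 70.8 CPM in NT total and 96.3 to 109 CPM in Pdx1 total, and at 80.9 to 86.5 CPM in NT IP and 130.4 to 159.7 CPM in Pdx1 IP. None of 6 acinar, 5 immune or 6 endothelial and stromal markers was in the tables. The part of these markers in the results below was not tested. In bulk RNA fewer cells of a type and less RNA per cell cannot be told apart. Among IP libraries, NT replicate 3 and the 3 Pdx1 libraries stood apart from NT replicates 1 and 2: genes with a near-identical copy elsewhere in the genome took 1.88% to 2.33% of counts in these 4 libraries, but 3.38% and 3.13% in NT IP replicates 1 and 2. Results from IP RNA are therefore also given with a term for this split. With that term the siRNA effect in IP RNA compares the Pdx1 IP libraries with NT IP replicate 3 alone, which is assumed to vary like the other libraries. Total libraries, at 1.95% to 2.68%, were grouped in the term with NT IP replicates 1 and 2. For IP against total RNA with NT siRNA the term therefore amounts to leaving out NT IP replicate 3. With Pdx1 siRNA it subtracts from Pdx1 IP the difference between NT IP replicate 3 and NT IP replicates 1 and 2. Calls lost with the term in these comparisons depend on that grouping.

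The promoters of 3 genes are shown because these genes differed with Pdx1 siRNA in both kinds of RNA under every processing setting tried and because RefSeq (GRCm38.p6, the assembly behind mm10) lists a start at the edge of the gene. Each line gives the 250 bases before the start, 5′ to 3′ on the gene's strand. Capitals mark GC boxes (GGGCGG, read on either strand). Gabarapl1 lies on the plus strand and its window is chr6:129532942-129533191. Atg9b (window chr5:24392144-24392393) and Wipi1 (window chr11:109611390-109611639) lie on the minus strand.
Gabarapl1: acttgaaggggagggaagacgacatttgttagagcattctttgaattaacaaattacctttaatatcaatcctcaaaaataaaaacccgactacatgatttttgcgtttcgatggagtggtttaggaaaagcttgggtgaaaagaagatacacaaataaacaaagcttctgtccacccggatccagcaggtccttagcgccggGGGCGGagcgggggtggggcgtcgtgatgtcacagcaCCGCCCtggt
Atg9b: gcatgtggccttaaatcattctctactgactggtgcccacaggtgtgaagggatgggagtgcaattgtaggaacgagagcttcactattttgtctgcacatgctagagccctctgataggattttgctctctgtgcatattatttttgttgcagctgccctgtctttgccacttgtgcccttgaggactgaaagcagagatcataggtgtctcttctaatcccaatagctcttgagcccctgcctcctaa
Wipi1: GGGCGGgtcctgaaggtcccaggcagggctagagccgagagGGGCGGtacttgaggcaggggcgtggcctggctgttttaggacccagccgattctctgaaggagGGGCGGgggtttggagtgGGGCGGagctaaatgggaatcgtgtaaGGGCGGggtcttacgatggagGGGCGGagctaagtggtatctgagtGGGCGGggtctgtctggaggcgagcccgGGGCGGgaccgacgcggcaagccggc
The Wipi1 window holds 8 GC boxes, that of Gabarapl1 holds 2, and that of Atg9b none. The Atg9b window has 1 CG dinucleotide, while the median over all RefSeq promoters is 6 and 18.8% of them have 1 or none.

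Promoter entries were found for 33 of the 39 genes (40 entries), and 7 motifs were looked for on both strands of the 250 bases. The GC box GGGCGG stood in 23 of the 40 entries, from 21 genes, against 32.7% of all 32851 promoters. The median GC content was 59.4% for these entries and 52.4% for all promoters. CACGTG, the E-box core of the CLEAR element bound by TFEB, stood in the windows of Atg3, Atg5 and Atg7 and in 6.02% of all promoters. The full CLEAR element, which contains CACGTG, was in 0.24% of all promoters and in none of the 40 entries. TGATGNAA, the element bound by ATF4 (3.45% of all), and the FOXO element GTAAACA (3.17%) were in none of the 40 entries. The cyclic AMP element TGACGTCA (1.55%) was in those of Atg16l2 and Trp53inp2, and the TATA box TATAAA (12.4%) in that of Atg4a.

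With Pdx1 siRNA some autophagy genes rose and others fell, and the median over the 39 was near 0. In total RNA 17 of 39 passed the edgeR test (adjusted p under 0.05, Benjamini-Hochberg over all 12643 genes), 9 higher and 8 lower, which is 43.6%. The background was 53% of all genes called, 23.8% higher and 29.2% lower. In IP RNA 19 of 39 passed, 9 higher and 10 lower (48.7%), against a background of 59.7%, 29.2% higher and 30.4% lower. Without Pdx1 total replicate 3 the count in total RNA was 11, when 44.4% of all genes passed. With the term for the split of IP libraries the count in IP RNA was 11, 5 higher and 6 lower, when 41.2% of all genes passed, 20.6% in each direction. The median log2 fold change was −0.03 in total RNA and 0.05 in IP RNA, and over all genes it was −0.04 and −0.01. Scaling by the upper quartile shifted the split to 11 higher and 5 lower in total RNA, and to 11 higher and 8 lower in IP RNA. All genes shifted too, to 27.1% higher and 24.1% lower in total RNA and to 30.1% and 29.4% in IP RNA, and their median in total RNA became 0.01. Groups of libraries did not overlap at 16 genes in total RNA (background 58.8%) and at 23 in IP RNA (background 64.9%). Of the 39, 6 rose in both kinds of RNA (Atg13, Atg4c, Atg7, Atg9b, Gabarapl1 and Vmp1) and 7 fell in both (Map1lc3a, Optn, Rb1cc1, Tfeb, Ulk2, Uvrag and Wipi1). None passed in opposite directions, and 16 passed in neither.

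**Figure D1:**
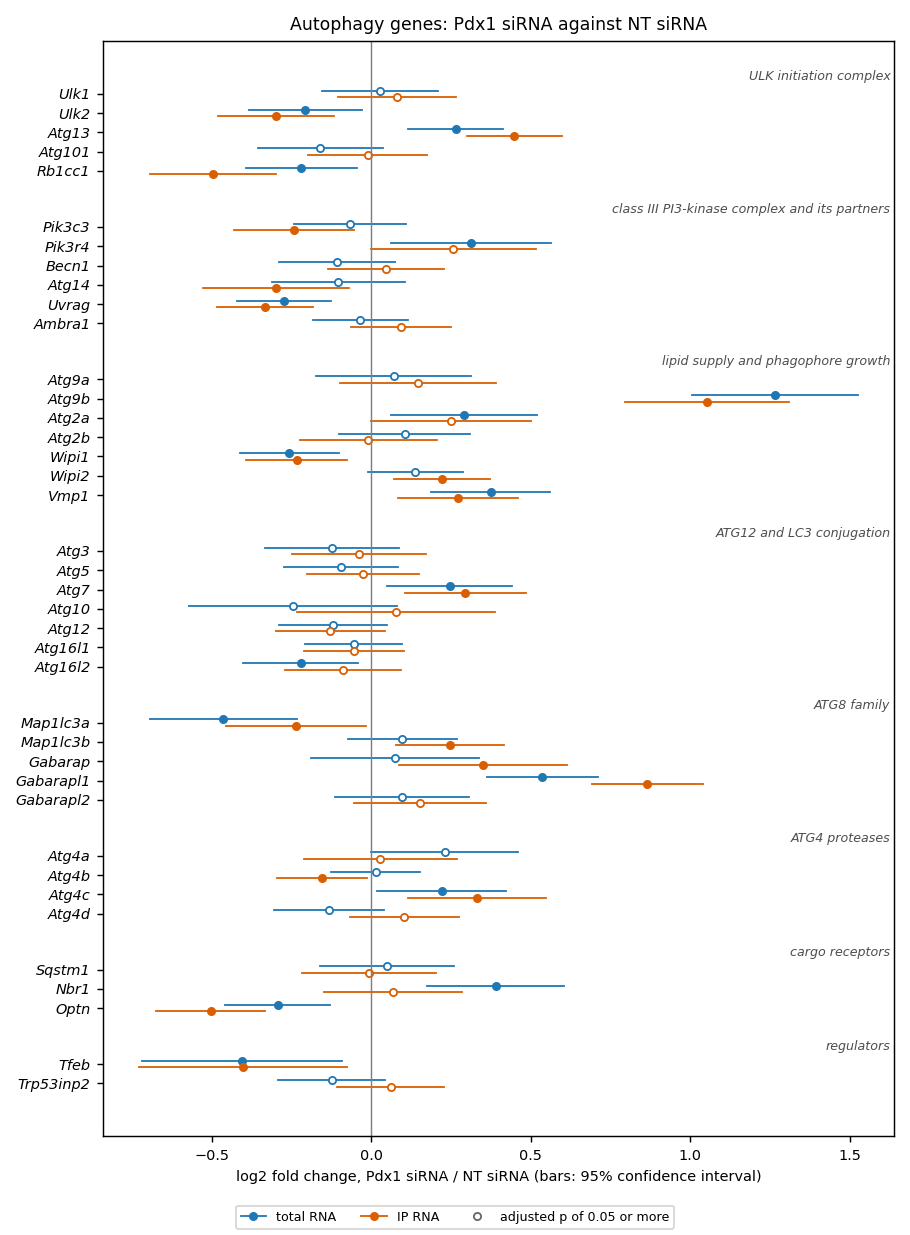
Log2 fold change of the 39 autophagy genes with Pdx1 siRNA against NT siRNA (x axis), by role, in total RNA (blue) and IP RNA (orange), 3 libraries a group. Bars are 95% confidence intervals and open circles have an adjusted p of 0.05 or more. Atg9b lies farthest from 0, at 1.27 in total RNA and 1.05 in IP RNA, followed by Gabarapl1 at 0.54 and 0.86.

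Within the ULK complex, which starts autophagosome formation, subunits moved in opposite directions. Atg13, the subunit that links the kinase to the complex, was at 54.0, 53.7 and 53.9 CPM in NT total and at 64.3, 63.7 and 66.3 CPM in Pdx1 total. It was at 66.2, 65.9 and 72.3 CPM in NT IP and at 97.0, 90.6 and 91.6 CPM in Pdx1 IP. In these scaled levels all Pdx1 siRNA libraries lay above all NT libraries of the same kind of RNA. Differences this small depend on the TMM factors, which differed between the groups as given above. Levels without such factors were not tested. The rise was 0.26 (log2, SE 0.06, adjusted p = 0.003) in total RNA and 0.45 (SE 0.06, adjusted p = 2.8e-05) in IP RNA. Rb1cc1, which encodes the large scaffold FIP200, went the other way. It was at 24.5, 28.5 and 27.1 CPM in NT total and 22.3, 22.8 and 23.7 CPM in Pdx1 total, and at 11.9, 11.5 and 10.9 CPM in NT IP and 8.85, 8.17 and 7.43 CPM in Pdx1 IP. The groups did not overlap in either kind of RNA, and IP libraries were the lower. Rb1cc1 fell by 0.22 (SE 0.08, adjusted p = 0.0229) in total RNA and by 0.50 (SE 0.09, adjusted p = 0.000158) in IP RNA.

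The kinase gene Ulk2 fell as well, by 0.21 in total RNA and 0.30 in IP RNA (adjusted p = 0.0337 and 0.00436), whereas its paralog Ulk1 had differences of 0.03 and 0.08 that did not pass. Atg101, which stabilises ATG13, was at −0.16 and −0.01 and did not pass. Neither fall in total RNA held under all alternatives. The Rb1cc1 call was lost with upper-quartile factors (adjusted p = 0.0776), in a fit on only the libraries compared (0.0659), and without NT total replicate 2 or 3 or Pdx1 total replicate 2 (−0.22 to −0.13, adjusted p = 0.0568 to 0.228). The Ulk2 call was lost under 10 of 16 alternatives: with RLE or upper-quartile factors (other scalings of library size), with DESeq2, with the insulin genes Ins1 and Ins2 left out, in a fit on only the libraries compared (adjusted p = 0.0583 to 0.111 over these), and without any 1 of NT total replicates 1, 2 and 3 or Pdx1 total replicates 2 and 3 (−0.19 to −0.13, adjusted p = 0.0998 to 0.245). In IP RNA both passed under every setting.

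In the class III phosphatidylinositol 3-kinase complex, the accessory subunits Uvrag and Atg14 direct the kinase to alternative complexes. Uvrag fell in both kinds of RNA and Atg14 in IP RNA. Uvrag was at 24.4, 25.1 and 23.2 CPM in NT total and 19.8, 20.8 and 19.6 CPM in Pdx1 total. Its IP levels were 25.1, 25.7 and 24.3 CPM with NT siRNA and 20.6, 19.8 and 19.2 CPM with Pdx1 siRNA. Every Pdx1 siRNA library was below every NT library of the same kind of RNA. Uvrag fell by 0.27 (SE 0.06, adjusted p = 0.0022) and by 0.33 (SE 0.07, adjusted p = 0.00043).

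Atg14 fell by 0.30 in IP RNA (SE 0.10, adjusted p = 0.0174) and was at −0.10 in total RNA (adjusted p = 0.351). Pik3c3, the catalytic subunit VPS34, fell by 0.24 in IP RNA (SE 0.08, adjusted p = 0.0178) and was at −0.07 in total RNA. Pik3r4, the regulatory subunit VPS15, rose by 0.31 in total RNA (SE 0.11, adjusted p = 0.0252) from 48.4, 58.3 and 51.0 CPM to 53.3, 69.1 and 73.3 CPM, with overlap of the groups. In IP RNA Pik3r4 was at 0.26 and did not pass (adjusted p = 0.0595), though its groups did not overlap. Becn1, the scaffold Beclin 1, was at −0.11 and 0.05, and Ambra1, a regulator of Beclin 1, at −0.03 and 0.09, and none of these passed. For Becn1, 51.5% of the exon bases are shared with Cntd1 on the opposite strand, which was at 24.7 to 30.0 CPM in NT total, so its counts are uncertain. Calls lost to a single library were those of Atg14 without NT IP replicate 2 or Pdx1 IP replicate 1 (adjusted p = 0.0593 and 0.0663), Pik3c3 without Pdx1 IP replicate 3 (0.0545), and Pik3r4 without NT total replicate 1 or Pdx1 total replicate 2 or 3 (0.0659 to 0.128). With the term for the split of IP libraries neither Atg14 (adjusted p = 0.0932) nor Pik3c3 (0.0909) passed.

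Among the genes that supply lipid to the growing membrane, Atg9b had the largest difference of all 39. ATG9 proteins are scramblases carried on vesicles that seed the membrane. Atg9b was at 8.0, 7.13 and 7.47 CPM in NT total and 17.9, 16.8 and 19.7 CPM in Pdx1 total. The IP levels were 10.2, 10.2 and 11.9 CPM with NT siRNA and 21.9, 18.8 and 26.3 CPM with Pdx1 siRNA. The lowest Pdx1 siRNA library was above the highest NT library in both kinds of RNA. The level rose 2.41-fold in total RNA (log2 1.27, SE 0.11, adjusted p = 2.3e-07) and 2.07-fold in IP RNA (log2 1.05, SE 0.11, adjusted p = 1.3e-06). It was the only 1 of the 39 past 2-fold in either comparison, against 7.01% and 9.47% of all genes. Of its exon bases 7.53% are shared with Nos3 on the opposite strand, which was at 1.14 to 1.32 CPM in NT total and 1.11 to 1.77 CPM in Pdx1 total.

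The paralog Atg9a, the broadly expressed form, was at 0.07 in total RNA and 0.15 in IP RNA and did not pass (95% confidence intervals −0.17 to 0.31 and −0.10 to 0.39). Its exons share 48.5% of their bases with a gene model on the same strand, so its counts are uncertain. Vmp1, an endoplasmic reticulum scramblase, rose from 133, 136 and 136 CPM to 169, 164 and 192 CPM in total RNA (0.37, SE 0.08, adjusted p = 0.00123) and from 192, 194 and 185 CPM to 218, 219 and 253 CPM in IP RNA (0.27, SE 0.08, adjusted p = 0.00932). Its groups did not overlap in either. Wipi1, which reads the lipid made by VPS34, was at 35.9, 35.3 and 36.1 CPM in NT total and 28.99, 31.1 and 29.6 CPM in Pdx1 total, and at 32.2, 31.1 and 32.8 CPM in NT IP and 29.5, 26.8 and 25.5 CPM in Pdx1 IP. It fell by 0.26 and by 0.23 (SE 0.07 in both, adjusted p = 0.00463 and 0.00838), with every Pdx1 siRNA library below every NT library.

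Wipi2, the relative of Wipi1 that recruits ATG16L1, rose by 0.22 in IP RNA (adjusted p = 0.00865) and was at 0.14 in total RNA (adjusted p = 0.0863). Atg2a, a lipid transfer protein, rose by 0.29 in total RNA (adjusted p = 0.0232) with overlapping groups, and was at 0.25 in IP RNA (adjusted p = 0.0595). Atg2b was at 0.10 and −0.01. The Atg2a call was lost without NT total replicate 3 or Pdx1 total replicate 2 or 3 (0.22 to 0.27, adjusted p = 0.0655 to 0.107), and the Vmp1 call in IP RNA without Pdx1 IP replicate 3 (0.20, adjusted p = 0.0505). With the term for the split of IP libraries the adjusted p in IP RNA was 0.0524 for Vmp1 and 0.122 for Wipi2.

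**Figure D2:**
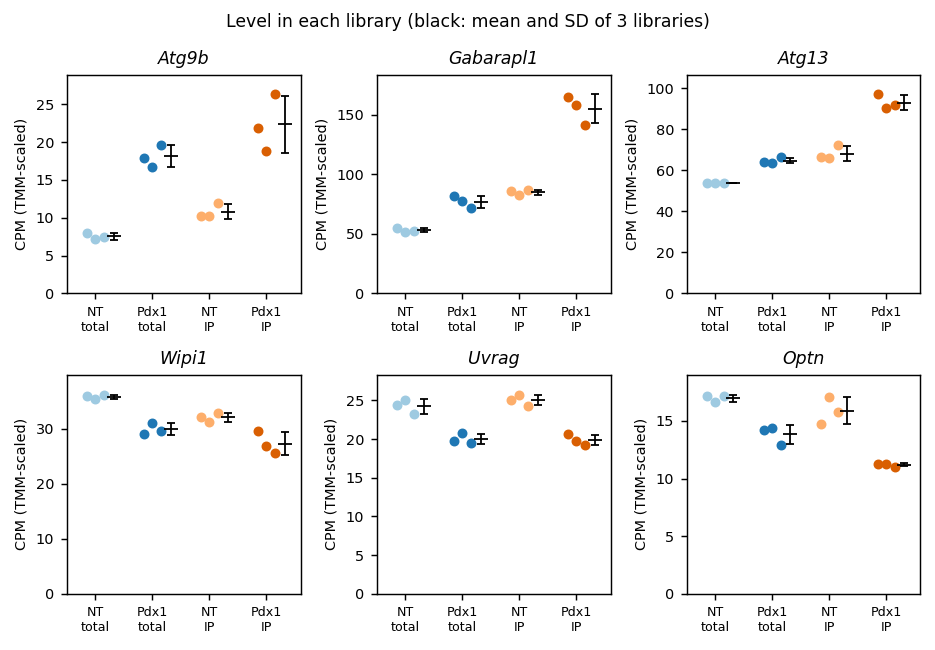
CPM (y axes, from 0) in each library of the 6 autophagy genes that passed the test in both total and IP RNA under every setting. Points are libraries, and black marks are the mean and SD of 3. Atg9b, Gabarapl1 and Atg13 are higher with Pdx1 siRNA and Wipi1, Uvrag and Optn lower, with no overlap between siRNA groups of the same kind of RNA.

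The genes of the ubiquitin-like conjugation systems, which attach ATG12 and ATG8 proteins, varied little with Pdx1 siRNA. Atg7, the E1-like enzyme of both systems, was the only 1 of 7 to rise. It went from 4.75, 4.81 and 4.56 CPM to 5.28, 6.07 and 5.32 CPM in total RNA and from 7.05, 7.44 and 7.07 CPM to 9.10, 8.58 and 8.77 CPM in IP RNA, with no overlap in either. The rises were 0.24 (SE 0.09, adjusted p = 0.0251) and 0.29 (SE 0.08, adjusted p = 0.00633). The first was lost without Pdx1 total replicate 2 (0.17, adjusted p = 0.131) and the second with the term for the split (0.32, adjusted p = 0.0501). Atg16l2, a paralog of the ATG16L1 scaffold, fell by 0.22 in total RNA (adjusted p = 0.0255), a call lost under 7 of 16 alternatives. These were upper-quartile factors, DESeq2 and a fit on only the libraries compared (adjusted p = 0.0643 to 0.078), and leaving out any 1 of NT total replicates 1, 2 and 3 or Pdx1 total replicate 3 (−0.21 to −0.15, adjusted p = 0.076 to 0.181). Atg3 and Atg10 (E2-like enzymes), Atg5, Atg12 and Atg16l1 passed in neither kind of RNA, with values from −0.25 to 0.08.

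In the ATG8 family, whose proteins coat the membrane and bind receptors, Gabarapl1 and Map1lc3a moved in opposite directions. Gabarapl1 was at 54.8, 51.7 and 52.7 CPM in NT total and 81.3, 77.6 and 71.7 CPM in Pdx1 total. IP levels were 85.8, 82.7 and 86.7 CPM with NT siRNA and 165, 158 and 142 CPM with Pdx1 siRNA. The Pdx1 siRNA libraries were all above the NT libraries, and the Pdx1 IP libraries were the highest of the 12. Gabarapl1 rose 1.45-fold in total RNA (log2 0.54, SE 0.08, adjusted p = 2.8e-05) and 1.82-fold in IP RNA (log2 0.86, SE 0.08, adjusted p = 1.4e-07). Of its exon bases 20.7% are shared with 1700101I11Rik on the opposite strand, which was at 2.02 to 2.24 CPM in NT total and 2.45 to 3.06 CPM in Pdx1 total.

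Map1lc3a, which encodes LC3A, was at 19.3, 16.6 and 17.3 CPM in NT total and 14.6, 12.7 and 11.3 CPM in Pdx1 total. Levels in IP RNA were 39.5, 35.4 and 44.0 CPM with NT siRNA and 34.4, 33.0 and 33.7 CPM with Pdx1 siRNA. The groups did not overlap in either kind of RNA, and NT IP replicate 2 lay close to the Pdx1 IP libraries. Map1lc3a fell by 0.46 in total RNA (SE 0.10, adjusted p = 0.00116) and by 0.24 in IP RNA (SE 0.10, adjusted p = 0.0438). The call in IP RNA was lost without any 1 library of the comparison except NT IP replicate 2 (−0.26 to −0.15, adjusted p = 0.0615 to 0.187), and with upper-quartile factors (0.0568).

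Gabarap was at 272, 219 and 256 CPM in NT total and 310, 240 and 236 CPM in Pdx1 total, which overlapped (0.07, SE 0.11, adjusted p = 0.608). In IP RNA it was at 506, 464 and 556 CPM with NT siRNA and 676, 657 and 612 CPM with Pdx1 siRNA, a rise of 0.35 (SE 0.11, adjusted p = 0.0155). Map1lc3b, which encodes the widely used autophagosome marker LC3B, rose by 0.25 in IP RNA (SE 0.07, adjusted p = 0.00939) and was at 0.10 in total RNA (adjusted p = 0.286). Gabarapl2 was at 0.10 and 0.15 and did not pass. The Gabarap call was lost without NT IP replicate 2 or Pdx1 IP replicate 1 (0.28 to 0.31, adjusted p = 0.0609 to 0.0799). With the term for the split the adjusted p was 0.284 for Gabarap and 0.142 for Map1lc3b, while Gabarapl1 (0.84, adjusted p = 2.9e-05) and Map1lc3a (−0.39, adjusted p = 0.0169) passed. Pseudogenes match 20.9% of the Gabarapl2 and 14.9% of the Map1lc3b transcript, so their counts are less certain.

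Levels of different genes can be compared only per length. In CPM per kilobase of transcript, Gabarap made up 70.5% ± 1.36 (SD, n = 3) of the ATG8 family's mRNA in NT total, and 64.5% ± 1.503 per kilobase of coding sequence. By transcript length the share of Gabarapl1 was 11.2% ± 0.77 in NT total and 15.1% ± 1.20 in Pdx1 total, and 9.27% ± 0.49 in NT IP and 13.1% ± 0.34 in Pdx1 IP. The share of Map1lc3a was 6.13% ± 0.24 in NT total and 4.11% ± 0.18 in Pdx1 total. Gabarap remained the most abundant member in all 4 groups by both lengths.

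**Figure D3:**
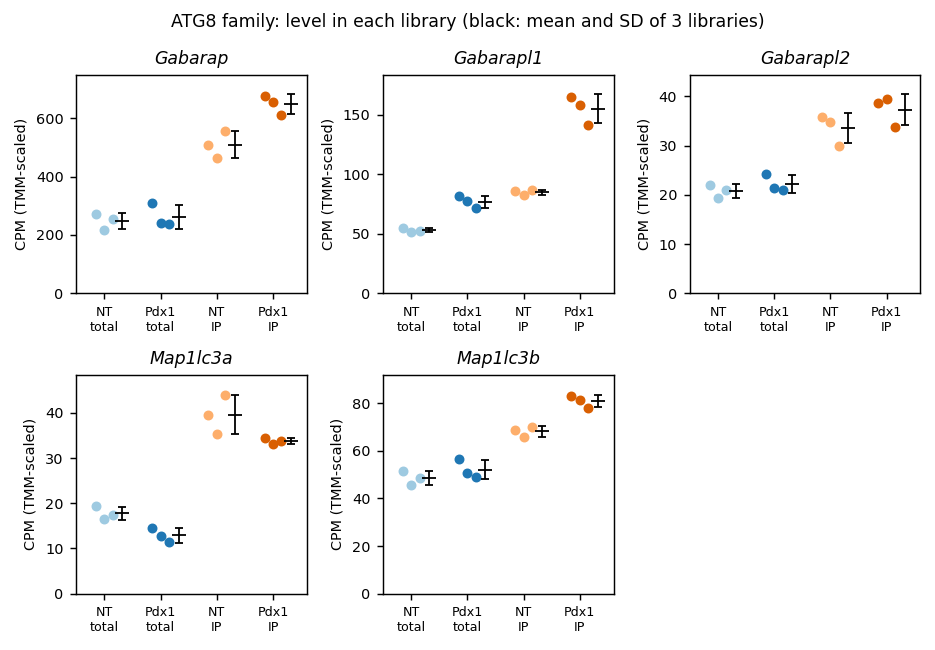
CPM (y axes, from 0) of the 5 ATG8 family genes in each of the 12 libraries, with the mean and SD of 3 libraries in black. All 5 are higher in IP than in total RNA. Gabarapl1 is higher with Pdx1 siRNA in both kinds of RNA and Map1lc3a lower.

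The ATG4 proteases prime ATG8 proteins and remove them from membranes. Atg4c rose from 10.4, 8.62 and 9.31 CPM to 11.8, 10.1 and 11.1 CPM in total RNA (0.22, SE 0.09, adjusted p = 0.0462), where the groups overlapped. In IP RNA it rose from 7.52, 7.97 and 7.15 CPM to 9.61, 9.96 and 8.91 CPM (0.33, SE 0.09, adjusted p = 0.00671), where they did not. The call in total RNA was lost without NT total replicate 2 or 3 or Pdx1 total replicate 1 or 3 (0.17 to 0.25, adjusted p = 0.0662 to 0.135). Atg4b, the main family protease, fell by 0.16 in IP RNA (adjusted p = 0.0394) and was at 0.01 in total RNA. That call was lost without any 1 library of the comparison except Pdx1 IP replicate 1 (−0.17 to −0.14, adjusted p = 0.058 to 0.115) and with the term for the split (adjusted p = 0.115), upper-quartile factors (0.064) or a fit on only the libraries compared (0.0601). Atg4a (0.23 and 0.03) and Atg4d (−0.13 and 0.10) did not pass. For Atg4d, 23.6% of the exon bases are shared with Kri1 on the opposite strand, which was at 23.9 to 26.1 CPM in NT total and 20.7 to 23.1 CPM in Pdx1 total, so its counts are uncertain. The pseudogene Atg4a-ps and another locus match 96.05% of the Atg4a transcript, so its counts cannot be assigned with certainty.

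The cargo receptors each behaved differently. Sqstm1 encodes p62, the receptor of ubiquitinated cargo. It was at 286, 313 and 291 CPM in NT total and 264, 340 and 317 CPM in Pdx1 total, and at 299, 301 and 311 CPM in NT IP and 307, 284 and 316 CPM in Pdx1 IP. The groups overlapped throughout. The differences were 0.05 in total RNA (95% confidence interval −0.16 to 0.26) and −0.01 in IP RNA (−0.22 to 0.20). Nbr1, a relative of p62, was at 125, 140 and 139 CPM in NT total and 150, 203 and 176 CPM in Pdx1 total, a rise of 0.39 (SE 0.09, adjusted p = 0.00262) with no overlap. In IP RNA it was at 89.2, 87.6 and 84.3 CPM with NT siRNA and 93.1, 90.8 and 89.8 CPM with Pdx1 siRNA, a difference of 0.07 that did not pass (adjusted p = 0.556).

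Optn encodes optineurin, a receptor for mitochondria. It was at 17.1, 16.6 and 17.2 CPM in NT total and 14.2, 14.4 and 12.9 CPM in Pdx1 total. Its levels in IP RNA were 14.7, 17.1 and 15.8 CPM with NT siRNA and 11.3, 11.2 and 11.03 CPM with Pdx1 siRNA. Every Pdx1 siRNA library was below every NT library of the same kind. Optn fell by 0.29 (SE 0.07, adjusted p = 0.0027) in total RNA and by 0.50 (SE 0.07, adjusted p = 3.3e-05) in IP RNA.

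Of the regulators, Tfeb encodes the transcription factor that drives lysosomal and autophagy genes. It was at 4.95, 5.25 and 4.32 CPM in NT total and 2.91, 4.48 and 3.45 CPM in Pdx1 total, where 1 Pdx1 library lay within the NT range. In IP RNA it was at 4.85, 5.29 and 5.13 CPM with NT siRNA and 4.32, 3.63 and 3.69 CPM with Pdx1 siRNA, without overlap. Tfeb fell by 0.41 (SE 0.14, adjusted p = 0.0209) and by 0.40 (SE 0.14, adjusted p = 0.023). The call was lost in total RNA without NT total replicate 1 or 2 or Pdx1 total replicate 1 or 3 (−0.37 to −0.28, adjusted p = 0.0709 to 0.122) and in a fit on only the libraries compared (0.0537). In IP RNA it was lost without NT IP replicate 2 or Pdx1 IP replicate 2 or 3 (−0.38 to −0.35, adjusted p = 0.0598 to 0.0802) and with the term for the split (−0.42, adjusted p = 0.101). Trp53inp2, a nuclear protein that also aids ATG8 attachment, was at −0.12 and 0.06 and did not pass.

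Whether the siRNA effect differed between IP and total RNA was tested as an interaction. With edgeR 0 of the 39 genes passed, against 0.229% of all genes (29 genes, 0.174% higher and 0.0554% lower). Past the test, the siRNA effect differed by 2-fold or more between the fractions for none of the 39, against 0.0633% of all genes. At an unadjusted p under 0.05 there were 4 (Atg4d, Gabarapl1, Nbr1 and Rb1cc1), against 17% of all genes. DESeq2 also gave 0 passing and 4 at the unadjusted level, against 2.59% and 15.9% of all genes. The difference, IP minus total, was 0.33 for Gabarapl1 (95% confidence interval 0.08 to 0.57, adjusted p = 0.141) and −0.32 for Nbr1 (−0.63 to −0.02, adjusted p = 0.231). It was −0.28 for Rb1cc1 (−0.54 to −0.01, adjusted p = 0.231) and 0.24 for Atg4d (−0.01 to 0.48, adjusted p = 0.265). The intervals use 8 degrees of freedom, fewer than the test, so that of Atg4d includes 0. All 5 ATG8 genes had a positive difference (0.06 to 0.33) and all 3 cargo receptors a negative one (−0.32 to −0.06), and none of these passed in this fit. Without Pdx1 total replicate 1 the difference for Nbr1 was −0.43 and passed (adjusted p = 0.0493).

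The comparison of IP with total RNA addressed how far each mRNA was recovered with the tagged ribosomes. With NT siRNA 29 of 39 passed, 16 higher and 13 lower in IP RNA (74.4%), against a background of 69.7%, 33.8% higher and 35.9% lower. With Pdx1 siRNA 31 passed, 18 higher and 13 lower (79.5%), against a background of 75.1%, 36.3% higher and 38.7% lower. Past the test and 2-fold or more were 4 genes with NT siRNA (background 9.4%) and 5 with Pdx1 siRNA (background 17.2%). Groups did not overlap at 30 genes with either siRNA, against 77.5% and 73.5% of all genes. The same 16 genes were higher and the same 11 lower under both siRNAs. These comparisons share no libraries with each other, but each shares its libraries with the siRNA comparisons above. The median log2 fold change was 0.06 with NT siRNA, and −0.02 over all genes. The median of the absolute values was 0.44, against 0.16 for the siRNA effect in total RNA, and over all genes these were 0.42 and 0.27.

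The 16 higher genes held the whole ATG8 family and most conjugation genes. All 5 ATG8 genes were higher in IP RNA, by 0.49 to 1.16 (NT siRNA) and 0.64 to 1.39 (Pdx1 siRNA). Map1lc3a was highest, at 1.16 (SE 0.10, adjusted p = 9.8e-08) and 1.39 (SE 0.10, adjusted p = 1.3e-08), and Gabarap followed at 1.03 and 1.31. Atg101 was at 14.8, 15.4 and 13.8 CPM in NT total and 30.0, 27.6 and 28.2 CPM in NT IP, and was higher by 0.96 and 1.11 with the respective siRNAs. Of the 7 conjugation genes, Atg3, Atg5, Atg7, Atg10 and Atg12 were higher under both siRNAs (0.23 to 0.83) and Atg16l1 was lower (−0.27 in both). The Atg12 call with Pdx1 siRNA was lost without Pdx1 total replicate 2 (0.19, adjusted p = 0.0527) and with the term for the split (0.31, adjusted p = 0.0646), and that of Atg16l1 with the term for the split (−0.17, adjusted p = 0.264).

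The 11 lower genes held several large scaffolds. Rb1cc1 had a log2 fold change of −1.22 (SE 0.08, adjusted p = 9.7e-09) with NT siRNA and −1.5 (SE 0.08, adjusted p = 1.6e-09) with Pdx1 siRNA, the lowest of the 39. Ambra1 went from 43.5, 40.5 and 39.7 CPM in NT total to 20.4, 19.9 and 19.1 CPM in NT IP (−1.06, SE 0.07, adjusted p = 7.3e-09), and the difference with Pdx1 siRNA was −0.93. Atg2a (−0.84 and −0.88), Atg2b (−0.81 and −0.92) and Pik3r4 (−0.77 and −0.82) lay close together. Nbr1 was at −0.63 and −0.95, Pik3c3 at −0.37 and −0.55, and Atg14 at −0.44 and −0.64. Ulk1 (−0.26 and −0.20) and Atg4c (−0.32 and −0.21) were lower by less. The Ulk1 call was lost without NT IP replicate 2 or NT total replicate 2 (adjusted p = 0.0513 and 0.147) or, with Pdx1 siRNA, without any 1 of Pdx1 IP replicates 1 and 2 and Pdx1 total replicates 2 and 3 (0.0584 to 0.12), with the term for the split (0.183), with DESeq2 (0.0569) and in a fit on only the libraries compared (0.0902). The Atg4c call was lost without NT total replicate 1 (0.067) or, with Pdx1 siRNA, without Pdx1 IP replicate 1 or 3 or Pdx1 total replicate 1 or 3 (0.0676 to 0.167). With Pdx1 siRNA it was also lost with the term for the split (−0.10, adjusted p = 0.656), with RLE factors, DESeq2 and a fit on only the libraries compared (0.0607 to 0.11).

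The other genes differed less or not past the test. Atg13 (0.34 and 0.52), Atg4d (0.48 and 0.72), Vmp1 (0.50 and 0.39), Atg9b (0.52 and 0.30) and Becn1 (0.22 and 0.37) completed the 16 higher genes, and the Becn1 call with NT siRNA was lost without NT IP replicate 1 (adjusted p = 0.0663). Trp53inp2 (−0.24) and Wipi1 (−0.16) were lower with NT siRNA, and with Pdx1 siRNA they were at −0.05 and −0.13 and did not pass. With Pdx1 siRNA Wipi2 (0.22) and Atg16l2 (0.19) were higher and Optn (−0.31) and Atg4b (−0.15) lower, and with NT siRNA they were at 0.13, 0.06, −0.10 and 0.02 and did not pass. The difference between the siRNAs, which is the interaction above, passed for none of these 6 genes (adjusted p = 0.312 to 0.921). With the term for the split the calls of Wipi2 (adjusted p = 0.236), Optn (0.0783), Atg16l2 (0.27) and Atg4b (0.182) with Pdx1 siRNA and of Wipi1 (0.0605) with NT siRNA were lost. Leaving out single libraries ended the calls of Wipi1 (any 1 of the 6, adjusted p = 0.0605 to 0.253), of Trp53inp2 (NT IP replicate 2 or NT total replicate 1 or 3, 0.0653 to 0.0927), of Atg16l2 (Pdx1 IP replicate 1 or 3 or Pdx1 total replicate 2 or 3, 0.0525 to 0.147) and of Atg4b (Pdx1 IP replicate 2 or 3 or Pdx1 total replicate 1 or 2, 0.0608 to 0.124). The Wipi1 call was also lost with RLE factors, DESeq2 or Ins1 and Ins2 left out (0.119 to 0.127), the Atg4b call with these and in a fit on only the libraries compared (0.0519 to 0.225), and the Atg16l2 call with upper-quartile factors (0.108) and in a fit on only the libraries compared (0.0684). Sqstm1, Uvrag, Ulk2, Tfeb, Atg9a and Atg4a passed under neither siRNA, with values from −0.10 to 0.11.

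**Figure D4:**
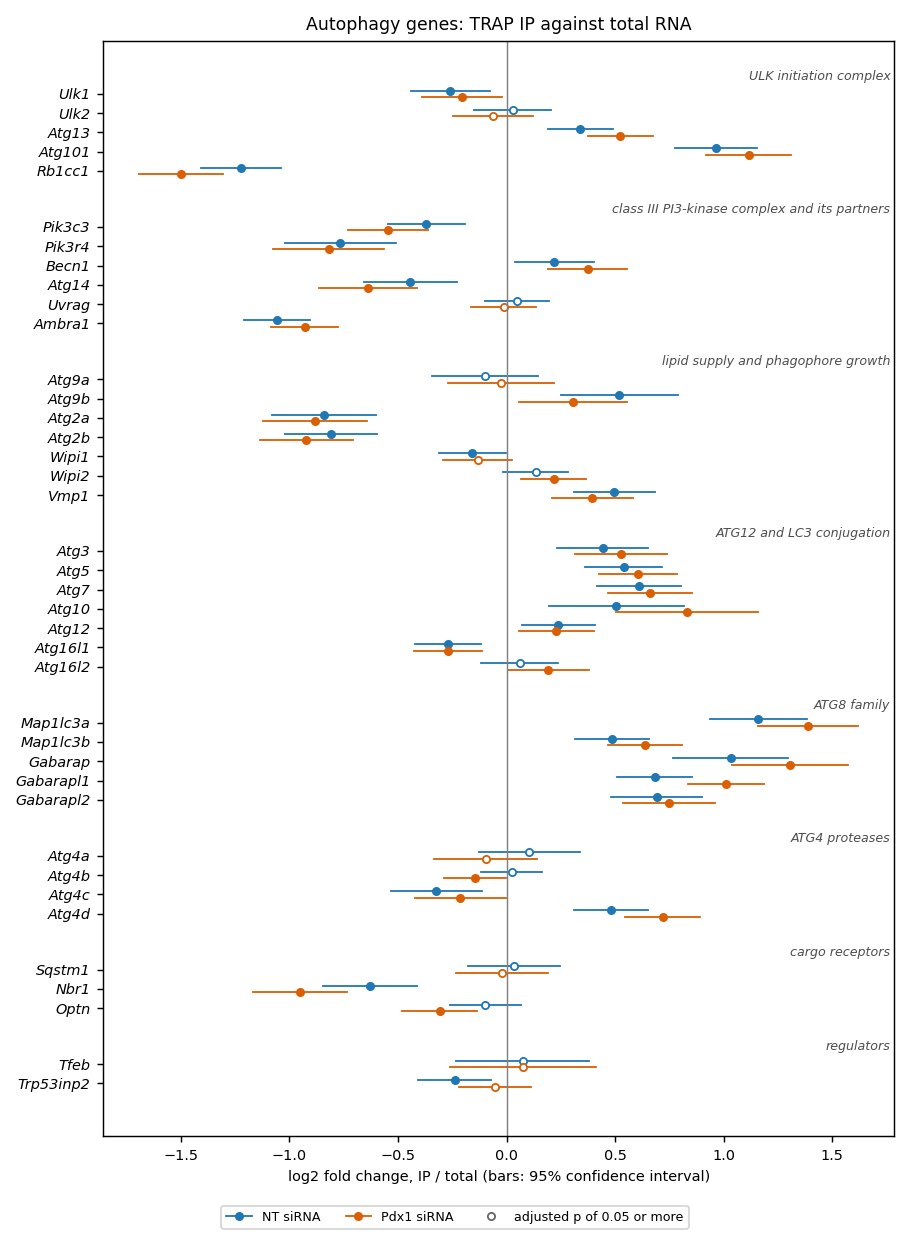
Log2 fold change of IP against total RNA (x axis) for the 39 autophagy genes by role, with NT siRNA (blue) and Pdx1 siRNA (orange), 3 libraries a group. Bars are 95% confidence intervals and open circles have an adjusted p of 0.05 or more. The ATG8 family lies to the right of 0 and Rb1cc1, Ambra1, Atg2a, Atg2b, Pik3r4 and Nbr1 to the left.

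The difference between IP and total RNA went with the length of the coding sequence, in these genes as in all. Spearman's rho was taken between coding length and the log2 ratio of mean CPM, with a small constant added, and not the edgeR fold change. With NT siRNA the rho was −0.75 over the 39 genes and −0.67 over 12127 genes. With Pdx1 siRNA it was −0.76 and −0.66. These are descriptions across genes that share the same libraries, and genes are not independent replicates. With NT siRNA the 13 genes with the shortest coding sequences (351 to 1188 bases) had 10 higher and 1 lower (median 0.51), and the 13 longest (2094 to 6225 bases) had 2 higher and 8 lower (median −0.37). With Pdx1 siRNA the counts were the same, with medians of 0.64 and −0.55. Atg7 and Atg9b were the long genes that were higher. With Pdx1 siRNA the Atg9b call was lost without Pdx1 IP replicate 3 (0.17, adjusted p = 0.14) or Pdx1 total replicate 2 (0.25, adjusted p = 0.0809) and with the term for the split (0.08, adjusted p = 0.753). The siRNA effect had little relation to coding length over the 39 genes (rho 0.12 in total RNA and −0.13 in IP RNA). What part length had in the recovery of single mRNAs was not tested.

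**Figure D5:**
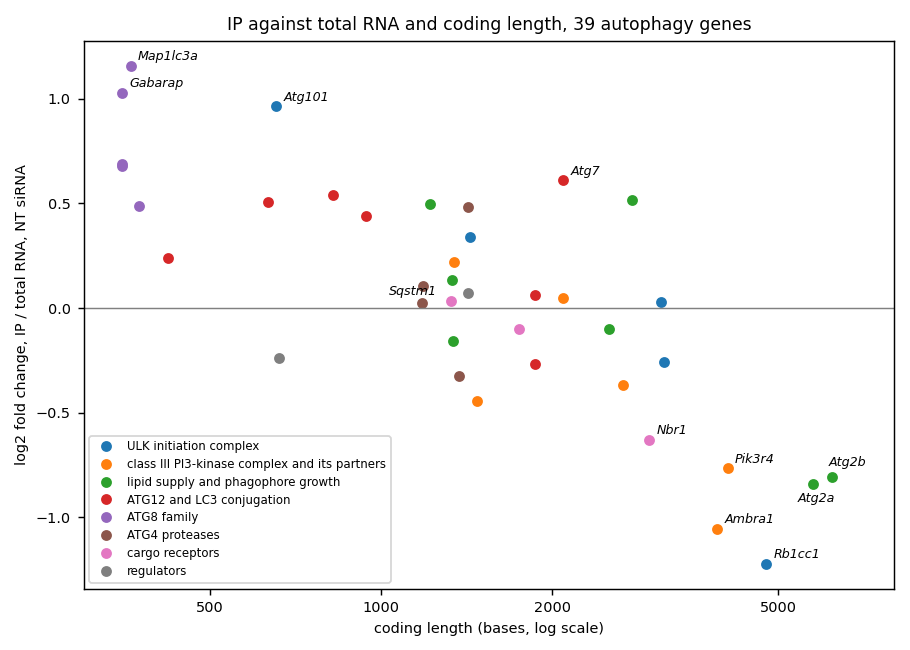
Log2 fold change of IP against total RNA with NT siRNA (y axis) against coding length in bases (x axis, log scale) for the 39 autophagy genes, coloured by role. Short genes such as Gabarap and Map1lc3a lie above 0 and long genes such as Rb1cc1, Ambra1 and Atg2a below. Spearman's rho of coding length with the log2 ratio of mean CPM, which is not the plotted edgeR value, was −0.75.

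Other genes of the pathway were taken from 6 lists. The background was 53% of all genes called in total RNA, 23.8% higher and 29.2% lower. In IP RNA it was 59.7%, 29.2% higher and 30.4% lower. Among 22 further receptors of selective autophagy, 7 rose and 6 fell in total RNA (59.1% called), and 8 rose and 6 fell in IP RNA (63.6%). Yipf3, a receptor for the Golgi, rose by 0.98 (SE 0.10, adjusted p = 9.1e-07) and 1.27 (SE 0.10, adjusted p = 4.2e-08). In total RNA it was at 143, 144 and 136 CPM with NT siRNA and 245, 275 and 313 CPM with Pdx1 siRNA. Ccpg1, a receptor for the endoplasmic reticulum, rose by 1.07 and 0.97, from 267, 284 and 268 CPM to 481, 574 and 662 CPM in total RNA, with no overlap. The mitochondrial receptor Bnip3l fell by 0.53 in total RNA (SE 0.09, adjusted p = 1.8e-04), from 39.1, 39.6 and 38.9 CPM to 28.3, 27.1 and 26.4 CPM. Bnip3, its paralog, fell by 1.76 and by 1.82, but has a near-identical copy elsewhere, so its counts are uncertain. Pink1, a kinase that marks damaged mitochondria, rose by 0.54 in IP RNA (adjusted p = 5.1e-06).

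Of 28 measured genes of MTORC1 and its lysosomal controls (29 listed), the kinase complex that restrains autophagy, 4 rose and 5 fell in total RNA, and 6 rose and 6 fell in IP RNA. The called share was 32.1% and 42.9%, against 53% and 59.7% of all genes. Sesn2, a leucine sensor that holds MTORC1 back, rose from 40.9, 41.5 and 39.6 CPM to 58.9, 75.0 and 72.7 CPM in total RNA (0.76, SE 0.08, adjusted p = 2.1e-06) and by 0.80 in IP RNA. Depdc5, part of the GATOR1 inhibitor of MTORC1, fell by 0.45 and by 0.64. Nprl3, another GATOR1 subunit, went the other way in IP RNA and rose under every alternative (0.32 to 0.42). Of 8 measured AMPK genes (9 listed), which encode the energy sensor that activates ULK1 and its upstream kinases, 4 fell in total RNA, and 1 rose and 3 fell in IP RNA. That is 50% called in each kind of RNA, against the same background. The regulatory subunits Prkab2 (−0.51 and −0.70) and Prkab1 (−0.41 and −0.47) fell in both. Stk11, the upstream kinase LKB1, rose by 0.34 in IP RNA, which was lost with the term for the split (0.20, adjusted p = 0.105).

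Of 15 genes for fusion of autophagosomes with lysosomes, 3 rose and 2 fell in total RNA, and 6 rose and 4 fell in IP RNA. The called share was 33.3% and 66.7%, against 53% and 59.7% of all genes. Lamp2, a lysosomal membrane protein, rose by 0.53 in total RNA (SE 0.10, adjusted p = 3.0e-04), from 479, 519 and 485 CPM to 650, 681 and 807 CPM. Vps16, a tethering subunit, fell by 0.45 and by 0.60 (adjusted p = 6.5e-05 and 4.0e-06). Of 10 measured genes for membrane source and lipid transfer (12 listed), 2 rose and 1 fell in each kind of RNA (30% called in each). Ei24, an endoplasmic reticulum protein, rose by 0.66 and 0.99, from 93.6, 76.1 and 102 CPM to 151, 125 and 152 CPM in total RNA. Sh3glb1, a partner of UVRAG, fell by 0.48 in total RNA and by 0.33 in IP RNA, the latter lost without Pdx1 IP replicate 1 or 3 (−0.29 to −0.26, adjusted p = 0.0607 to 0.0768).

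Of 15 transcription regulators of autophagy genes, 3 rose and 7 fell in total RNA, and 2 rose and 6 fell in IP RNA. The called share was 66.7% and 53.3%. Trp53inp1, the paralog of Trp53inp2 and a p53 target, was at 20.6, 21.6 and 24.3 CPM in NT total and 71.4, 63.7 and 68.0 CPM in Pdx1 total. It rose by 1.61 (SE 0.09, adjusted p = 9.3e-10) in total RNA and 1.72 (SE 0.09, adjusted p = 4.3e-10) in IP RNA, whereas Trp53inp2 passed in neither. Trp53, which encodes p53, fell in IP RNA under every alternative (−0.50 to −0.42). The activity of p53 was not tested. Atf4, the effector of the integrated stress response, fell by 0.74 and by 0.51 (adjusted p = 2.0e-05 and 4.4e-04). Its target Ddit3 fell by 0.70 in total RNA (adjusted p = 1.0e-05), and Foxo1, a forkhead factor, by 0.45 in IP RNA (adjusted p = 5.0e-04). For comparison, 53% of all genes passed in total RNA and 59.7% in IP RNA. The share of called genes in the 6 lists ran from 30% to 66.7%, on both sides of the background. The list medians ran from −0.21 (AMPK) to 0.06 (receptors) in total RNA and from −0.17 (AMPK) to 0.06 (membrane source) in IP RNA.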

How the data were processed

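RNA-seq of total RNA and TRAP IP RNA gave 12 libraries. For every library the authors deposited a table of unnormalized integer read counts, 1 value for each RefSeq transcript. The submitters' processing notes name TopHat2, featureCounts and mm10 but no version. The use of strand and of reads with several matches is not given in the sources used here. A symbol was found for 16838 of 17133 transcripts through RefSeq (GRCm38.p6). The rest, 0.577% to 0.834% of counts, were left out. Of several transcripts of a gene, the one with the largest summed count stood for it.

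Genes were tested with edgeR 4.0.16 (R 4.3.3), in 1 quasi-likelihood fit over the 4 groups with TMM factors and 8 residual degrees of freedom. The expression filter removed 0 genes. Adjusted p-values are Benjamini-Hochberg over 12643 genes, with a threshold of 0.05. Standard errors come from the log2 fold change and its F statistic, and CPM uses TMM-scaled library sizes. The 95% confidence intervals use these standard errors with 8 degrees of freedom. The test uses more, so an interval can include 0 at an unadjusted p under 0.05. The test was run on simulated counts first. Alternatives were RLE and upper-quartile factors, DESeq2 1.42.0, other filters, Ins1 and Ins2 left out, the lowest transcript per gene, replicate blocks, fits on only the libraries compared, a term for the split of IP libraries, and each library left out.

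Copies elsewhere were found with minimap2 2.31 on GENCODE M21 transcripts (at least 100 bases, 95% identity, 50% of the transcript), for 447 genes. Figures were drawn with Python 3.11.15. The genes and the pathway lists were chosen with earlier results of these data known. The list genes named in the text are a selection. They come from the genes of each list that passed, up to 4 with the lowest p and the gene with the largest change. Others picked by that rule for the siRNA comparisons are not described, among them Camkk2, Fnip2, Foxk2, Rragc, Lamp1, Rab7, Zfyve1 and Prkag2. List genes are not described for IP against total RNA.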

Additional observations from a re-analysis of the deposited data

How the results depend on the processing

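Replicates are 3 a group, which limits the precision of small differences, and per-length levels depend on the transcript model. Over the 4 comparisons of groups and the interaction, no call of the 39 genes changed direction under any alternative. Every alternative scaled library sizes by TMM, RLE, upper-quartile or DESeq2 factors. Calls without such factors were not tested. Calls that held under every alternative numbered 9 of 17 in total RNA, 9 of 19 in IP RNA, 24 of 29 for IP against total RNA with NT siRNA and 22 of 31 with Pdx1 siRNA. Leaving out 1 library gave 11 to 17 calls in total RNA (11 without Pdx1 total replicate 3, with 44.4% of all genes called), 14 to 18 in IP RNA (14 without Pdx1 IP replicate 3, with 52.6% of all genes), 26 to 28 and 26 to 29 for IP against total RNA with NT and Pdx1 siRNA, and 0 to 1 for the interaction (1, Nbr1, without Pdx1 total replicate 1, with 3.03% of all genes). With the term for the split of IP libraries 11 genes passed in IP RNA, 5 higher and 6 lower, 10 of them among the 19, and 41.2% of all genes passed. That fit has fewer NT IP libraries to compare. Replicate numbers were not taken to pair the libraries, because not every same-numbered pair correlated above 0.1. The correlation of same-numbered deviations ran from −0.07 to 0.59, and the highest with another number from −0.33 to 0.31. Own numbers correlated best in 7 of 12 pairs. With the replicate block the calls were 17, 21, 0, 30 and 31 in the order total RNA, IP RNA, interaction, NT and Pdx1 siRNA, beside 57.2%, 62.7%, 2.95%, 72% and 76.7% of all genes. A replicate block within each siRNA gave 1 for the interaction, Gabarapl1 (0.33, adjusted p = 0.0441), beside 2.9% of all genes, and ended the call of Atg4c for IP against total RNA with Pdx1 siRNA (adjusted p = 0.0587). The cause of these shifts was not tested.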
